A study of Homo sapiens with 20 samples.

Results

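HNF4A and HNF4G encode the HNF4 transcription factors. They are 2 of the 20037 protein-coding genes in the annotation used here, and they were described across 10 lists of accessible chromatin intervals from the colon cancer lines LOVO and RKO. At each gene every interval that touched the gene body or the 50 kb on either side was recorded, which gave 87 of the 292390 intervals in all lists. The genes were chosen from earlier results on these same lists, so their presence, absence, width and score in the lists are given as a description, with no test.

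The assay was ATAC-seq, in which a transposase inserts adapters into accessible DNA. LOVO and RKO are established human colon adenocarcinoma lines. Cells with a control short hairpin RNA (shControl) were compared with cells whose hairpin targets METTL3 (shMETTL3), the enzyme that methylates adenosines in RNA. Either kind was left untreated or exposed to olaparib, a PARP inhibitor. All cells thus carried a hairpin; the sources used here give neither the number of hairpin sequences or clones, nor the dose or time of olaparib. Of the 20 samples in 8 groups, each line contributed 4 to untreated shControl, of which 2 are marked batch 2, and 2 to every other combination of hairpin and drug. The lists are named for groups, 5 per line, and no sample has a list of its own. A group therefore has no replicate spread, except that untreated shControl has 2 lists per line of different form, and no test between groups was possible.

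HNF4 proteins are orphan nuclear receptors that bind DNA as dimers at direct repeats. HNF4A is a master regulator of liver, kidney, pancreas and gut epithelium, and HNF4G, its close paralog, is found mainly in the gut, where the pair keeps enterocyte, brush-border and lipid-handling genes active. HNF4A has an upstream promoter, P2, and a downstream promoter, P1, whose transcripts encode proteins with different amino-terminal ends.

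HNF4A (gene ID 3172) lies on chromosome 20 from 44355699 to 44434596 (hg38), a body of 78.9 kb. RefSeq (GRCh38.p14) gave a promoter window for each of its annotated starts, 250 bases before to 50 bases after the start on the plus strand. Both are shown because each lay wholly inside an interval in all 5 LOVO lists, 300 of 300 bases, and outside every interval of the 5 RKO lists. Capitals mark matches to short motifs described after the sequences. The first is P2 at chr20:44355449-44355748 and the second is P1 at chr20:44400989-44401288, 45.5 kb downstream.
HNF4A P2: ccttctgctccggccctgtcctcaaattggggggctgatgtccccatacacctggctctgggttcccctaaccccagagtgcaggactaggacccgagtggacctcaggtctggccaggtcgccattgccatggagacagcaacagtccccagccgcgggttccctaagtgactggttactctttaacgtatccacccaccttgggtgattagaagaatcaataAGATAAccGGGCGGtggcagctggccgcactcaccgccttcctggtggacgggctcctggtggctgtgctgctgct
HNF4A P1: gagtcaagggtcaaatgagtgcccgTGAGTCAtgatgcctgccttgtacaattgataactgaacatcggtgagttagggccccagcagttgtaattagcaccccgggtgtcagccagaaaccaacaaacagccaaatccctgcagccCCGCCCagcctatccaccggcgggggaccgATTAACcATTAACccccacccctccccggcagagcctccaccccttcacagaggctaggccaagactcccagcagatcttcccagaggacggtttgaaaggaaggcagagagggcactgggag
In P2 the capitals are a GATA motif (AGATAA) at bases 225 to 230 and a GC box (GGGCGG) at bases 233 to 238, counted from 1 at the left end. P1 held an AP-1 motif (TGANTCA, here TGAGTCA) at bases 26 to 32, a GC box on the other strand (CCGCCC) at bases 148 to 153, and a pair of HNF1 half-sites (GTTAAT, on the other strand ATTAAC) at bases 178 to 183 and 185 to 190. None of these matches overlapped another. The first half-site ended 1 base before the second began, and they lay at -73 and -66 relative to the start of the transcript. Of all 35116 promoter windows of this length, searched on both strands, 6.88% held GTTAAT, 10.3% AGATAA, 7.71% TGANTCA and 45.0% GGGCGG. An HNF4 core (CAAAGTCC) was in 1.20% of windows and a CDX core (TTTATG) in 10.6%, and neither was in P1 or P2. A match is a run of letters and does not show binding. Only these letter strings were searched, so a site with a variant sequence would be missed. A window without a match may thus still hold such a site. The windows of P2 and P1 had a G+C content of 60% and 57.7%.

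The 10 lists differed in size, which bears on every count that follows. In LOVO the lists held 33474 intervals in untreated shControl (merged form), 41431 in untreated shControl (scored form), 16417 with shMETTL3 alone, 32192 for shControl given olaparib and 51462 for shMETTL3 given olaparib. The corresponding RKO lists held 27978, 21210, 6916, 25855 and 35455. Merged lists give positions only, while the 6 scored lists add a peak name and a score, whose rank within its own list is given here as a percentile. All peak names in the scored lists name replicate 1 of the group, so the scores may be those of 1 replicate, and how the second sample entered is not stated in the labels. Where 2 scored intervals share a peak name they are parts of 1 deposited peak. The read depth behind each list is unknown, so an interval that is missing from a list does not show closed chromatin. Shares are given with 95% exact (Clopper-Pearson) intervals, which cover counting error only.

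Markers of epithelium and of other cell types were counted as present when an interval lay within 1 kb of an end of the gene, which held for 35.8% to 58.5% of all protein-coding genes in the LOVO lists and 25.3% to 55.4% in RKO. Of 8 epithelial genes, 4 to 8 were present in the LOVO lists (50% to 100%) and 1 to 5 in the RKO lists (12.5% to 62.5%). KRT8 was in all 10 lists, EPCAM in 5 LOVO and 4 RKO lists, and KRT18 and CLDN3 each in 3 LOVO and 4 RKO lists. CLDN7 was in 5 LOVO lists and 1 RKO list. KRT19, CDH1 and CLDN4 were in no RKO list and in 5, 2 and 3 LOVO lists. The RKO shares stood near those of all genes. Of 7 intestinal genes, 3 to 6 were present in LOVO, and in RKO none was present in untreated shMETTL3 and CDX2 alone in the other 4 lists. No list held any of the 5 hepatocyte genes within 1 kb. Of 7 mesenchymal genes, 0 to 2 were present in LOVO and 1 to 3 in RKO, and of 5 leukocyte genes at most 2 in LOVO and at most 1, SPI1, in RKO. Several of these counts depended on the window. Within 5 kb every list held hepatocyte genes, at most 4 of 5 in a LOVO list and at most 2 in an RKO list. Untreated shMETTL3 held 1 in each line. Merged shControl then held 7 intestinal genes in LOVO and 4 in RKO, and RKO shMETTL3 with olaparib held 5. The share over all genes at 5 kb is not given here.

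HNF4A carried intervals along its body in every LOVO list, while in RKO the body held none in 3 of the 5 lists. The window of gene body and flanks, 179 kb, held 7, 9, 6, 9 and 14 intervals in the LOVO lists, in the order merged and scored untreated shControl, untreated shMETTL3, and then, both treated with olaparib, shControl and shMETTL3. In RKO it held 4, 3, 2, 2 and 8. Within the gene body itself the LOVO lists held 4, 5, 4, 4 and 8 intervals and the RKO lists 1, 0, 0, 0 and 4. Over all protein-coding genes the median was 3, 4, 1, 3 and 4 intervals per window in LOVO and 3, 2, 1, 3 and 4 in RKO. HNF4A thus had more intervals than 88.6% to 97.4% of genes in the LOVO lists. In RKO it had more than 30.6% to 84.6% of them, lowest with shControl and olaparib and highest with shMETTL3 and olaparib. Windows grow with gene length, and no comparison over gene windows given here was matched for it. The HNF4A window also takes in intervals at the neighbours FITM2 and TTPAL. Counted as named peaks and not as parts, the scored lists held 8, 8 and 13 peaks in LOVO and 2, 2 and 7 in RKO.

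**Figure D1:**
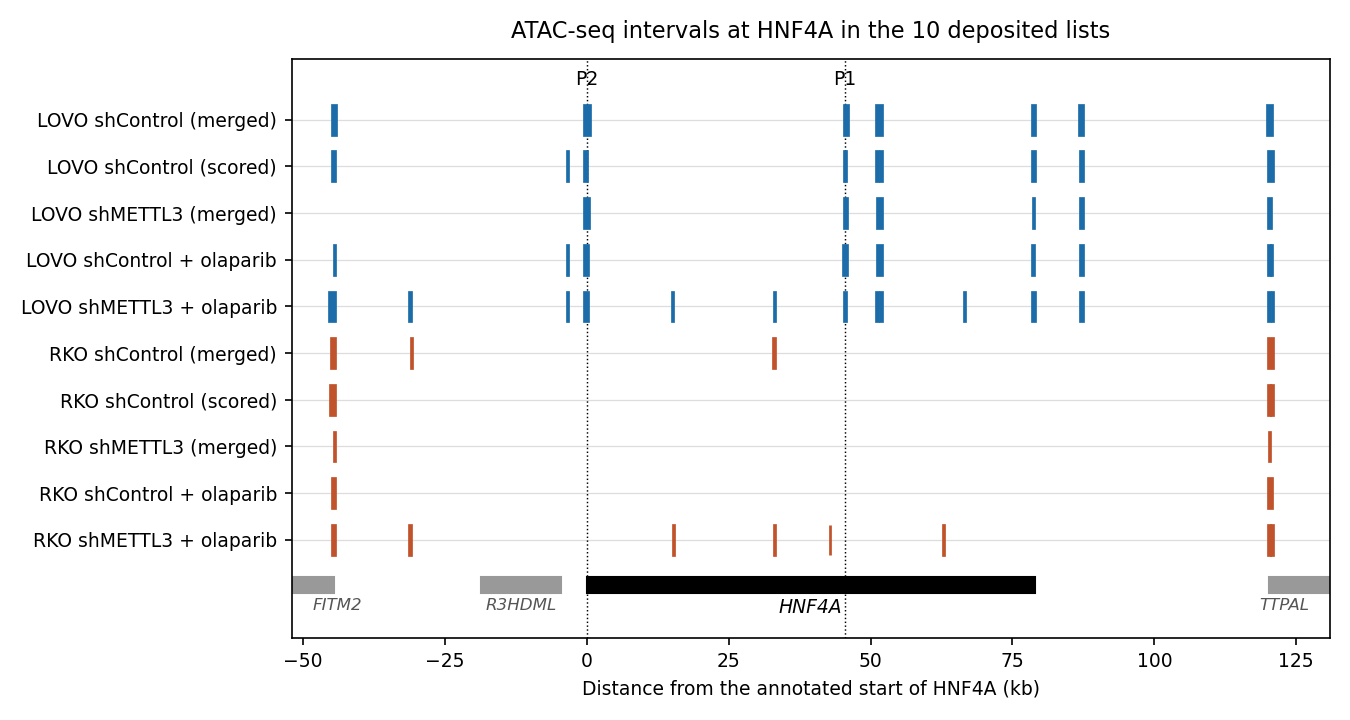
Intervals at HNF4A in each of the 10 lists, by distance from the annotated start of the gene in kb (horizontal axis). Each bar is an interval, blue for LOVO and orange for RKO, with narrow bars drawn at a minimum width so that they can be seen; dotted lines mark P2 and P1. Columns of 5 blue bars with no orange bar under them stand at P2, P1, +51.5 kb, +78.7 kb and +87.1 kb.

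Overlapping intervals of all lists were joined, which gave 14 regions at HNF4A among 72261 in all. Of these, 5 were in every LOVO list and in no RKO list, and 2 when only intervals at or above their list's median score or width were kept. Over all joined regions, 8.07% had that pattern. The count per gene window, not matched for window length, was set beside other genes. Of the 20037 genes, 88 had 5 or more such regions, 73.1% had none, and the most at any gene was 15.

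The first of the 5 regions covered P2 at chr20:44355189-44356316. Its interval was 1081 bp wide in the merged shControl list, 495 bp in the scored shControl list, 841 bp in untreated shMETTL3, 751 bp once shControl cells had olaparib and 651 bp in shMETTL3 with olaparib. Its scores stood at percentile 60.7 in untreated shControl, 35.1 in shControl with olaparib and 55 in shMETTL3 with olaparib. The region also overlapped the start of R3HDML-AS1, a long noncoding RNA gene on the opposite strand. ATAC-seq carries no strand, so the starts of these neighbours cannot be told apart.

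P1, at chr20:44400882-44401751, had widths of 814, 473, 578, 733 and 492 bp in the same list order. Its score percentiles were 70.1, 71.3 and 55.4. In each scored list P1 ranked above P2, with the smallest gap in shMETTL3 with olaparib. Among all 35116 promoter windows, 1.15% (404) touched an interval in every LOVO list and in no RKO list, and both HNF4A promoters were among them. By list, 24.1% to 38.5% of promoter windows touched an interval in LOVO and 14.5% to 37.1% in RKO.

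The third region, inside the gene at chr20:44406683-44407767, 51.5 kb from the start, ranked highest of the gene-body regions in every scored LOVO list. It was 1085 bp wide in merged shControl, 959 bp in untreated shMETTL3 and 1003 bp in shControl with olaparib. In scored shControl it stood as parts of 327 and 454 bp, and in shMETTL3 with olaparib as parts of 367 and 482 bp, each pair with a shared peak name. Its scores of 16.2, 13.7 and 16.4 stood at percentiles 92, 89.7 and 88.7. Of the 3 sites described so far it varied least in rank between groups. The annotation used gives no exons, so exonic and intronic positions were not told apart.

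The fourth region lay over the 3′ end of the gene at chr20:44434062-44434688. Its widths were 567, 553, 261, 323 and 544 bp and its score percentiles 64.4, 38.2 and 47.2. The last region, at chr20:44442484-44443168, lay 7888 bp past the end of HNF4A and 5609 bp from LINC01430, the nearest gene. Its widths were 685, 549, 474, 549 and 530 bp. Its score percentile was 67.5 in untreated shControl, 67.6 in shControl with olaparib and 99.1 in shMETTL3 with olaparib. It was the highest-ranked interval at either gene in any list. Each group has 1 scored list, so the spread around these ranks is unknown.

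The other intervals of the HNF4A window lay at neighbours or were seen in few lists. A region at the start of FITM2, which encodes a lipid droplet protein, was in 9 lists and missing from untreated LOVO shMETTL3. The region over the lower-coordinate end of TTPAL, which encodes a protein similar to the tocopherol transfer protein, was in all 10. These neighbours account for every RKO interval of the window in scored shControl, untreated shMETTL3 and shControl with olaparib. A region at -3.4 kb, inside R3HDML-AS1, was in the 3 scored LOVO lists and no other list, at percentiles 13 to 29.6. The promoter windows of R3HDML, HNF4A-AS1, LINC01430 and LINC01620 were touched in no list. The window also holds MIR3646 and the pseudogene RPL37AP1, neither overlapped by an interval.

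The nearest regions left out by the 50 kb limit lay 76 kb before and 61.2 kb past the gene, in 4 and 5 lists. The outermost regions kept were 44.2 kb before and 41 kb past it.

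List by list, the share of LOVO intervals at HNF4A with no RKO partner was above that of the whole list, except in shMETTL3 with olaparib. Each whole-list share lay inside the exact interval of the share at HNF4A. With 1 bp of overlap counted as a partner, 5 of 7 LOVO intervals (71.4%, 29 to 96.3) had none in the merged shControl pair, against 55.9% of all intervals of the list. In the scored shControl pair the count was 7 of 9, against 65.1%. It was 5 of 6 in untreated shMETTL3 (73.2% of all), 6 of 9 in shControl with olaparib (55.7%) and 8 of 14 in shMETTL3 with olaparib (60.0%). The gene body alone leaves out the intervals at FITM2 and TTPAL. There the counts were 4 of 4, 5 of 5, 4 of 4, 4 of 4 and 6 of 8 in the same order. Of RKO intervals, 2 of 4, 0 of 3, 1 of 2, 0 of 2 and 2 of 8 had no LOVO partner in the same order, against 45.4%, 31.8%, 35.0%, 44.8% and 41.9% of all. The number of regions that recurred in all 5 LOVO lists, given above, is another measure than the share within a pair of lists. The part of list size in the line pattern was not tested.

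The METTL3 hairpin was compared with the control hairpin to see which intervals were missing without drug. At HNF4A in LOVO, 1 of 7 merged shControl intervals (14.3%, 0.361 to 57.9) had no partner in shMETTL3, against 52.5% of all intervals. The missing one was at FITM2, and P2, P1 and the other 3 regions of HNF4A were present in both lists. In RKO, 2 of 4 (50%, 6.76 to 93.2) were missing against 76.9% of all. These were the regions at -31.0 and +33.1 kb from the start, and those at FITM2 and TTPAL were kept. These counts depend on the 1 bp rule. With a partner required to cover 50% of the interval, 3 of 7 (42.9%) were missing in LOVO and 4 of 4 (100%) in RKO. The share over all intervals at 50% is not given here. No shMETTL3 interval was without a shControl partner, with 0 of 6 in LOVO (0 to 45.9%) and 0 of 2 in RKO (0 to 84.2%), against 2.73% and 4.25% of all.

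The kept intervals were narrower in shMETTL3, as nearly all kept intervals were. At HNF4A in LOVO the shMETTL3 width was 77.8% of the shControl width at P2, 71% at P1, 88.4% at +51.5 kb, 46% at the 3′ end and 69.2% at +87.1 kb. All 6 kept intervals of the window were narrower, as were 94.0% of all kept LOVO intervals, whose median was 69.9%. In RKO the kept interval at FITM2 had 22.6% of its shControl width and that at TTPAL 26.4%, where 98.8% of all kept intervals were narrower and the median was 37%. In LOVO the 3′ end of HNF4A, the +87.1 kb region and TTPAL (49.2%) stood below the median, and P2, P1 and the +51.5 kb region stood above it.

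In control-hairpin cells every HNF4A interval of the scored untreated list had a partner in the olaparib list, and the reverse. In LOVO 0 of 9 untreated intervals (0 to 33.6%) had no partner with olaparib, against 28.2% of all, and 0 of 9 olaparib intervals had none in the untreated list, against 9.19%. In RKO the counts were 0 of 3 (0 to 70.8%) against 11.5%, and 0 of 2 (0 to 84.2%) against 29.2%. With the merged untreated list in its place, 2 of 4 RKO intervals (50%) were missing with olaparib, those at -31.0 and +33.1 kb, and 1 of 9 LOVO olaparib intervals (11.1%) was unmatched, that at -3.4 kb. That swap crosses the 2 list forms, and its share over all intervals is not given here. For the scored lists the upper bounds exceed the background in both lines, so a difference of that size was not detectable with these few intervals.

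With olaparib in both, shMETTL3 was compared with shControl. No HNF4A interval of shControl with olaparib was missing from shMETTL3 with olaparib, with 0 of 9 in LOVO against 6.65% of all, and 0 of 2 in RKO against 10.5%. In the other direction 4 of 14 LOVO intervals (28.6%, 8.39 to 58.1) were only in shMETTL3 with olaparib, against 40.5% of all. In RKO it was 5 of 8 (62.5%, 24.5 to 91.5) against 33.1%. The background lies inside both of these intervals.

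These extra intervals were narrow and low in rank. The 4 in LOVO were 142 to 231 bp wide at percentiles 5.13 to 47.2, and the 5 in RKO were 122 to 277 bp at percentiles 15.2 to 48. None of the 9 scored above its list's median. Of all intervals with the same pattern, 23.8% in LOVO and 29.1% in RKO did. A region 15.2 kb into HNF4A, which also overlaps HNF4A-AS1, was in the pair of shMETTL3 with olaparib lists and no other list, at percentile 5.13 in LOVO and 24.6 in RKO, a pattern of 0.631% of all joined regions. Regions 42.9 and 62.9 kb from the start were in the RKO list alone, and one at 66.6 kb in the LOVO list alone. The regions at -31.0 and +33.1 kb were in both shMETTL3 with olaparib lists and also in the merged RKO shControl list.

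**Figure D2:**
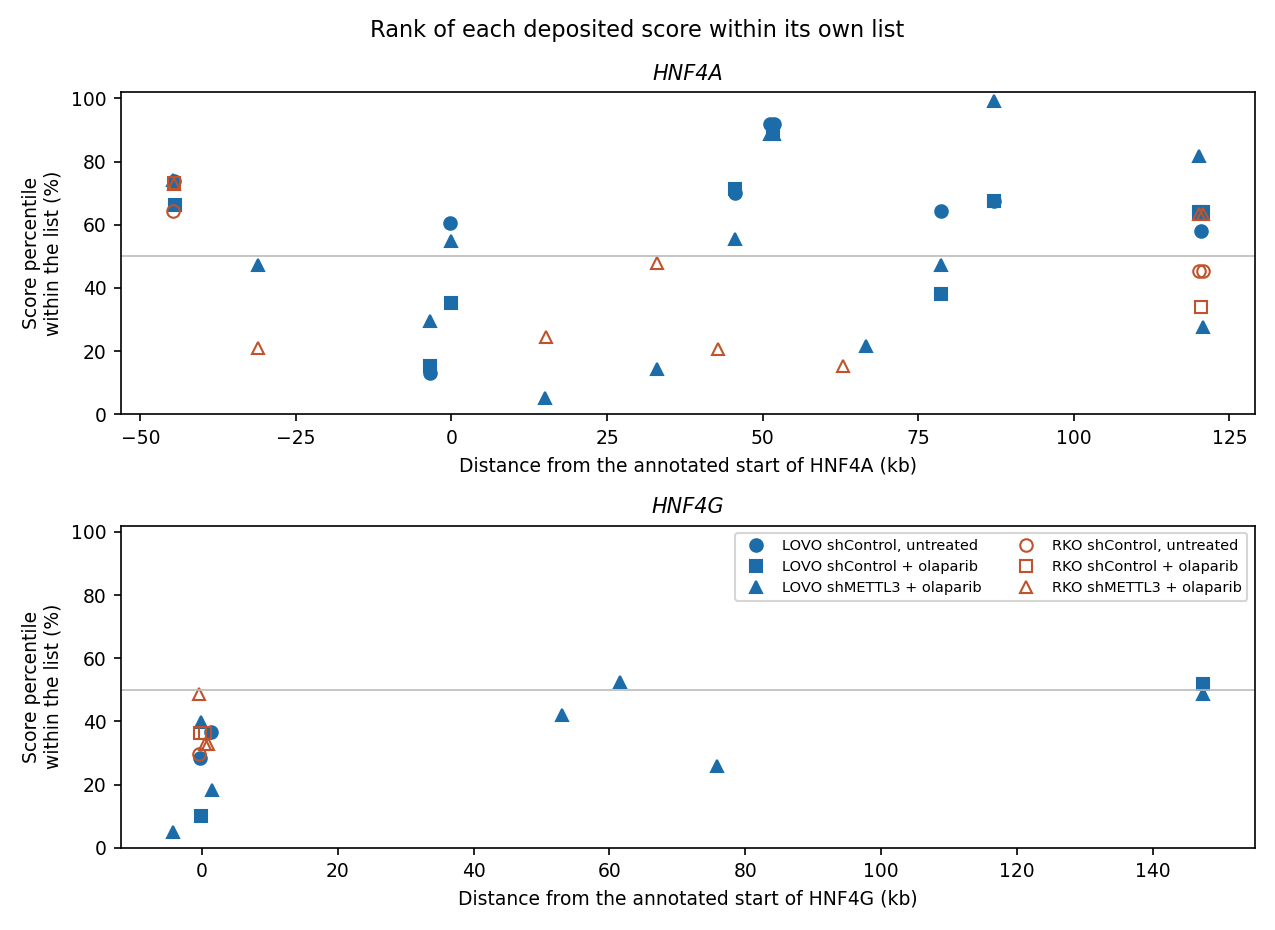
Rank of each scored interval within its own list (vertical axis, percentile of the deposited score) by distance from the gene start in kb, for HNF4A (upper panel) and HNF4G (lower panel). Symbols give line and group, and the grey line is the median of a list; at HNF4A the LOVO symbols at +51.5 kb stand between 88.7 and 92, and the triangle at +87.1 kb at 99.1.

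Set against untreated controls, shMETTL3 with olaparib kept the full HNF4A pattern of LOVO. Of the untreated shControl intervals (scored form) 0 of 9 were missing, against 11.2% of all, and in RKO 0 of 3 against 6.86%. Only in shMETTL3 with olaparib were 4 of 14 LOVO intervals (28.6% of all intervals of the list had that pattern) and 5 of 8 RKO intervals (44.5% of all). With the merged untreated list, which crosses the 2 list forms, the RKO count was 3 of 8. The share over all intervals for that swap is not given here. Against untreated shMETTL3, a comparison across the 2 list forms, 0 of 6 LOVO and 0 of 2 RKO intervals were missing (0.792% and 2.81% of all). In that comparison 7 of 14 and 6 of 8 intervals were only in the olaparib list (67.0% and 81.2% of all).

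The pair of untreated shControl lists gives the only spread within a group. These lists differ in form and possibly in batch, so their spread does not measure the noise of the same-form comparisons. In LOVO 0 of 7 merged intervals at HNF4A were absent from the scored list and 1 of 9 scored intervals, the one at -3.4 kb, from the merged list (12.2% and 23.9% of all). In RKO 2 of 4 merged intervals and 0 of 3 scored intervals were unmatched (36.9% and 11.5% of all). The 2 unmatched RKO intervals are the same that were missing from untreated RKO shMETTL3.

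HNF4G (gene ID 3174) lies on chromosome 8 from 75407649 to 75566834 (hg38), a body of 159 kb, with only the pseudogene PKMP4 beside it in its window of 259 kb. It differed from HNF4A in having 1 recurrent region, at its start, in both lines. The window held 3, 2, 0, 2 and 7 intervals in the LOVO lists, in the order used above, and 3, 1, 0, 2 and 3 in RKO. No interval at all was recorded in untreated shMETTL3 of either line, as for 25.9% of genes in that LOVO list and 43.9% in that RKO list. HNF4G had more intervals than 0 to 70.3% of genes in LOVO and 0 to 35.3% in RKO.

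**Figure D3:**
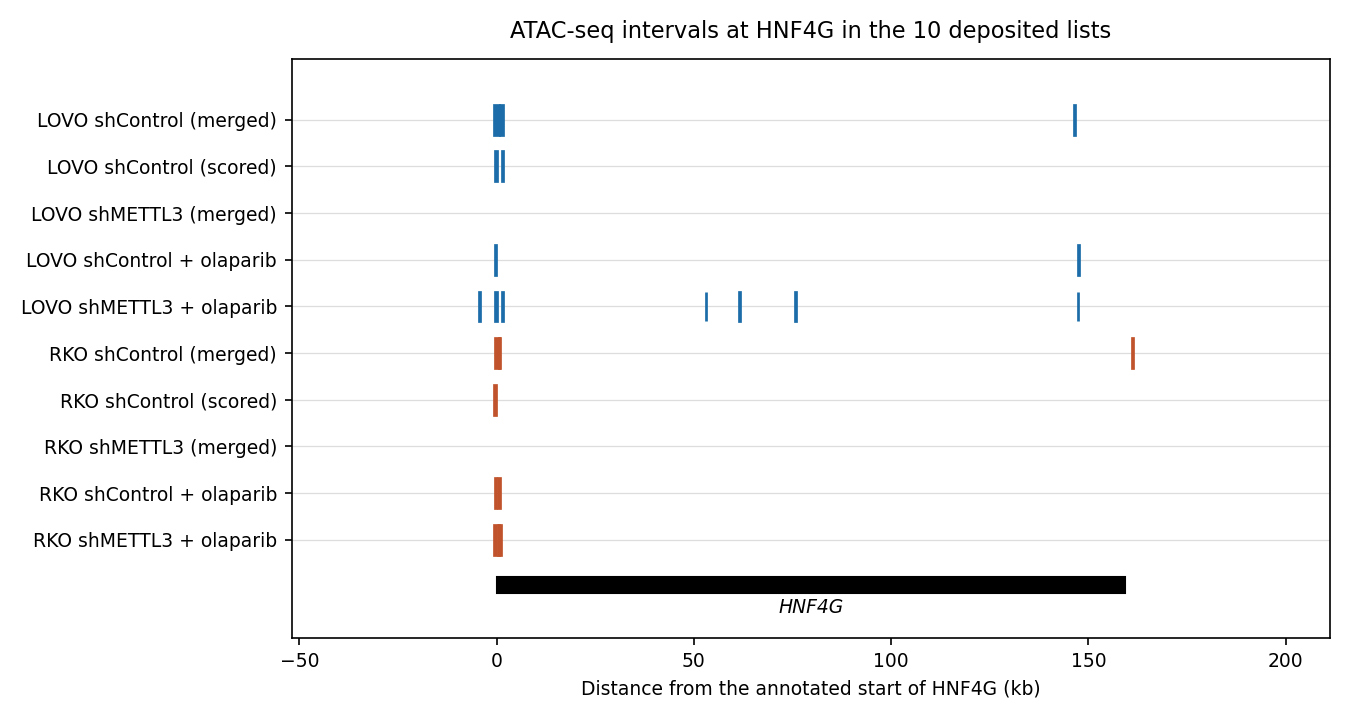
Intervals at HNF4G in each of the 10 lists, by distance from the annotated start of the gene in kb (horizontal axis), drawn as in the map of HNF4A. The start carries bars in 8 lists, and both rows of untreated shMETTL3 are empty.

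The start region of HNF4G, from 75406969 to 75409193, was in 8 lists, all but untreated shMETTL3 of LOVO and of RKO. In merged LOVO shControl it was made of intervals of 1173 and 622 bp. In scored LOVO shControl it had 514 and 143 bp, in shControl with olaparib 403 bp, and in shMETTL3 with olaparib 480 and 178 bp. In merged RKO shControl the widths were 1013 and 306 bp, in scored shControl 441 bp, with olaparib 399 and 469 bp, and with shMETTL3 and olaparib 390, 153 and 539 bp. The interval was broad but low in score: the widest merged parts stood at width percentiles 91.4 in LOVO and 88.4 in RKO, and the scores at percentiles 10.2 to 39.7 in LOVO and 29.7 to 48.8 in RKO. Every scored part thus lay under the median of its list. In LOVO the main part stood at score percentile 28.3 untreated, 10.2 with olaparib and 39.7 with shMETTL3 and olaparib. In RKO the parts before the start stood at 29.7, 36.2 and 48.8 in the same order.

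A gene-end interval in all lists but the pair of untreated shMETTL3 lists was seen at 1140 of 20037 protein-coding genes (5.69%), so HNF4G was 1 of many. By line, 31.2% of the genes with a gene-end interval in merged LOVO shControl (51.5% of all genes) had none in shMETTL3, and 54.1% of those in RKO (54.9% of all genes). HNF4A kept its gene-end interval in LOVO and had none in any RKO list, a pattern shared by 264 genes (1.32%). All 3 merged shControl intervals at HNF4G were missing from shMETTL3 in each line (100%, 29.2 to 100), against the 52.5% and 76.9% of all intervals given above.

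The start interval of HNF4G was wide for its list but low in score, and the share of absent intervals differed between those classes. Among merged shControl intervals at or above width percentile 80, 25.8% in LOVO and 45.4% in RKO were absent from shMETTL3. Scores exist in the scored lists only, so the shares by score set a scored shControl list against the merged shMETTL3 list and mix form with group. Among scored shControl intervals between score percentiles 20 and 40, where the HNF4G start stood, 85.2% in LOVO and 81.2% in RKO were absent. Of LOVO intervals from score percentile 60 to 100, which held P2, P1 and the other 3 regions of HNF4A, 26.5% were absent. Whether score had a part in the contrast between the genes was not tested.

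**Figure D4:**
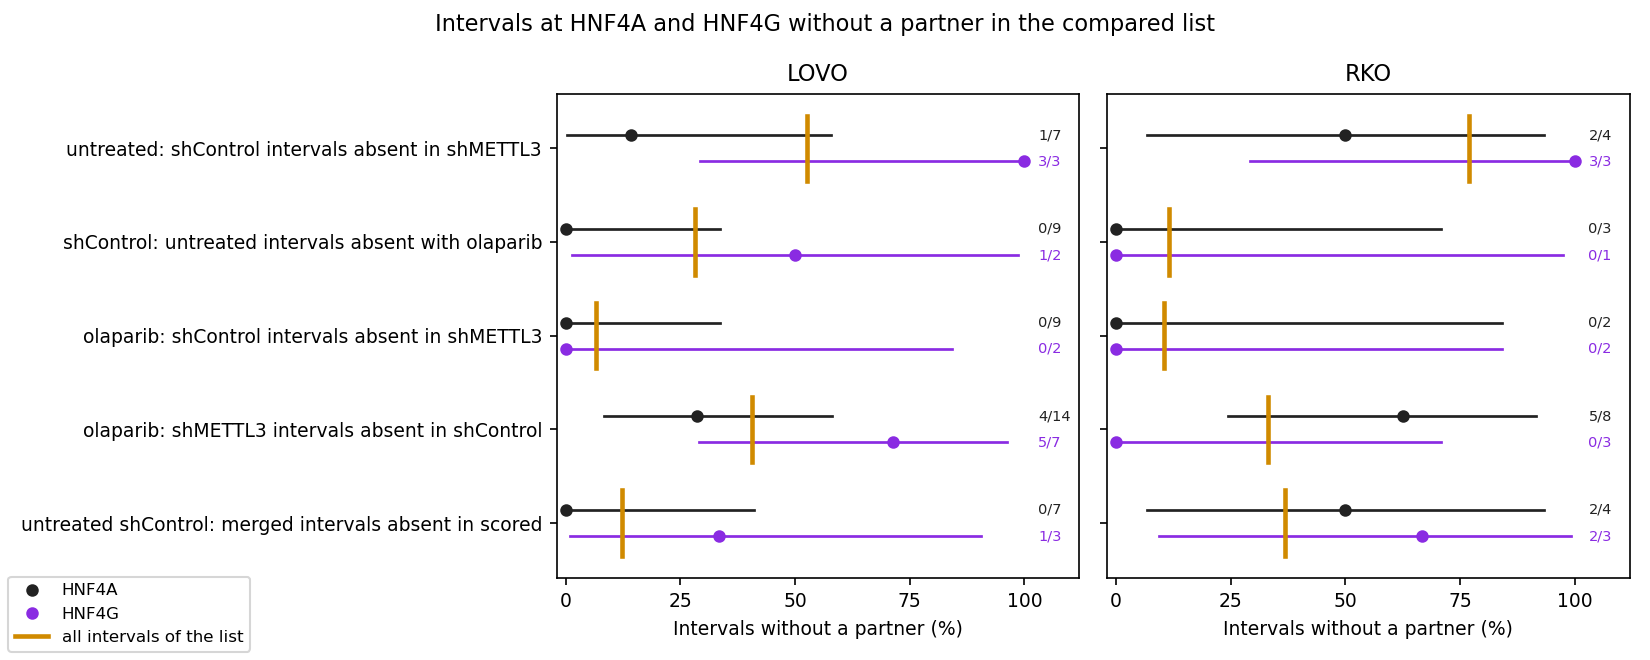
Share of intervals at HNF4A (black) and HNF4G (violet) with no partner in the compared list, in percent, for LOVO (left) and RKO (right). Points are shares, lines their 95% exact intervals, fractions the counts, and ochre bars the share over all intervals of the list; in untreated shMETTL3 the HNF4G point stands at 100 in both lines and the HNF4A point at 14.3 in LOVO and 50 in RKO.

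With olaparib in control-hairpin LOVO cells 1 of 2 HNF4G intervals was missing, the 143 bp part inside the gene, and 1 of 2 was only in the olaparib list, at +147.4 kb (28.2% and 9.19% of all). In RKO 0 of 1 was missing and 1 of 2 was only in the olaparib list, a second part of the start region (11.5% and 29.2% of all). Under olaparib no shControl interval was missing from shMETTL3, with 0 of 2 in each line (6.65% of all in LOVO and 10.5% in RKO). Of LOVO intervals 5 of 7 (71.4%, 29 to 96.3) were only in shMETTL3 with olaparib, against 40.5% of all, and in RKO 0 of 3 (0 to 70.8%) against 33.1%. Both backgrounds lie inside these intervals. The 5 in LOVO were 142 to 202 bp wide at percentiles 5.04 to 52.5, with 1 above its list's median, and 4 of them lay at -4.3, +53.0, +61.6 and +75.8 kb in no other list. The fifth was the part at the start that the untreated list also held.

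Against untreated shControl, shMETTL3 with olaparib lacked 0 of 2 LOVO intervals and 0 of 1 RKO interval at HNF4G (11.2% and 6.86% of all) and added 5 of 7 and 2 of 3 (28.6% and 44.5% of all). In RKO the merged untreated list, which crosses the 2 list forms, left 0 of 3 as added. The share over all intervals for that swap is not given here. Against untreated shMETTL3 every interval was additional, 7 of 7 in LOVO and 3 of 3 in RKO, since that list had none (67.0% and 81.2% of all). Between the untreated shControl lists 1 of 3 merged LOVO intervals and 2 of 3 merged RKO intervals had no scored partner (12.2% and 36.9% of all). The LOVO one lay at +146.5 kb and was 175 bp wide, and the RKO ones were a 306 bp part of the start and a 177 bp interval 1956 bp past the gene. The HNF4G start itself was in both shControl lists of both lines. In the comparison of lines, 2 of 3 merged shControl intervals of LOVO and 2 of 3 of RKO had no partner in the other line (55.9% and 45.4% of all). The counts were 1 of 2 and 0 of 1 in scored shControl (65.1% and 31.8%), 1 of 2 and 1 of 2 in shControl with olaparib (55.7% and 44.8%), and 6 of 7 and 2 of 3 in shMETTL3 with olaparib (60.0% and 41.9%). No region of HNF4G was in all LOVO lists and in no RKO list. The nearest regions outside the window lay 55.2 kb before and 131 kb past the gene, each in 1 list.

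Genes that work with HNF4 were read from lists of partner transcription factors, coregulators and targets, counting an interval within 1 kb of a gene end. Of 12 partner transcription factors, 8, 8, 6, 8 and 10 had one in the LOVO lists and 5, 4, 1, 5 and 4 in RKO, in the list order used above. Over all genes the share was 35.8% to 58.5% in LOVO and 25.3% to 55.4% in RKO, against 50% to 83.3% and 8.33% to 41.7% of the partners. ELF3, an epithelial ETS factor, and NR5A2, a nuclear receptor of liver and gut, had the pattern of HNF4A, present in all LOVO lists and absent from all RKO lists. FOXA3, a forkhead factor that binds with HNF4A at liver and gut enhancers, was in all 10 lists. GATA6, a zinc finger factor of gut endoderm, had the pattern of HNF4G, with an interval in merged shControl of both lines and none in shMETTL3 of either. GATA4 and ONECUT1 had none in any list.

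In untreated shMETTL3, 2 of 8 partners were lost in LOVO (FOXA2 and GATA6) and 4 of 5 in RKO (CDX2, FOXA1, GATA6 and SOX9), beside the 31.2% and 54.1% of all genes. With olaparib in shControl none of 8 in LOVO and none of 4 in RKO was lost, against 7.47% and 2.36% of all genes. Between shControl and shMETTL3 under olaparib none of 8 was lost in LOVO and 1 of 5, SOX9, in RKO, against 1.50% and 1.79%. CDX2, the caudal homeobox factor of intestine, and FOXA1 were in all 5 LOVO lists and in 4 RKO lists.

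Of 12 coregulators and related receptors, 5, 9, 4, 5 and 8 had a gene-end interval in LOVO and 9, 8, 2, 9 and 10 in RKO. In merged shControl that was 41.7% and 75%, against 51.5% and 54.9% of all genes. LOVO had fewer than RKO there and in the olaparib lists, and more in scored shControl and untreated shMETTL3. Within 5 kb merged shControl held 10 in each line. RXRA, a nuclear receptor, was in all RKO lists and in no LOVO list, the reverse of HNF4A. It was 1 of 12 members with that pattern, whose share over all genes is not given here. EP300, a histone acetyltransferase, was in all 10. The merged and scored shControl lists of LOVO differed by 4 members here (5 against 9), as large as the loss with olaparib, where NR0B2, NR2F1, NR2F2 and NR2F6 of 9 were missing (7.47% of all genes). In untreated shMETTL3, 2 of 5 members were lost in LOVO and 7 of 9 in RKO, beside 31.2% and 54.1% of all genes. RXRB was lost in both lines, but in RKO it was also missing from scored shControl and from shControl with olaparib, so that its loss there rests on the merged shControl list.

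Target genes were mostly without an interval within 1 kb of a gene end. Of 16, 6, 6, 3, 6 and 6 had one in LOVO and 2, 2, 1, 2 and 3 in RKO, where the share over all genes was 51.5% and 54.9% in merged shControl. MTTP, which loads lipid onto lipoproteins, was in all 10 lists. LGALS4, a galectin of gut epithelium, was in all LOVO lists and in no RKO list. APOA1 (a lipoprotein component), VIL1 (the brush-border protein villin) and PCK1 (an enzyme of gluconeogenesis) were in 4 LOVO lists each and missing from untreated shMETTL3, which made 3 of 6 lost. In RKO 1 of 2, CDX2, was lost. Over all genes the shares lost were 31.2% in LOVO and 54.1% in RKO. In 9 of the 16, APOA4, APOC3, TTR and FABP1 among them, no list had a gene-end interval. These counts depended on the window. Within 5 kb they were 10, 9, 4, 9 and 11 of 16 in LOVO and 5, 4, 2, 4 and 6 in RKO. The share over all genes at 5 kb is not given here.

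**Figure D5:**
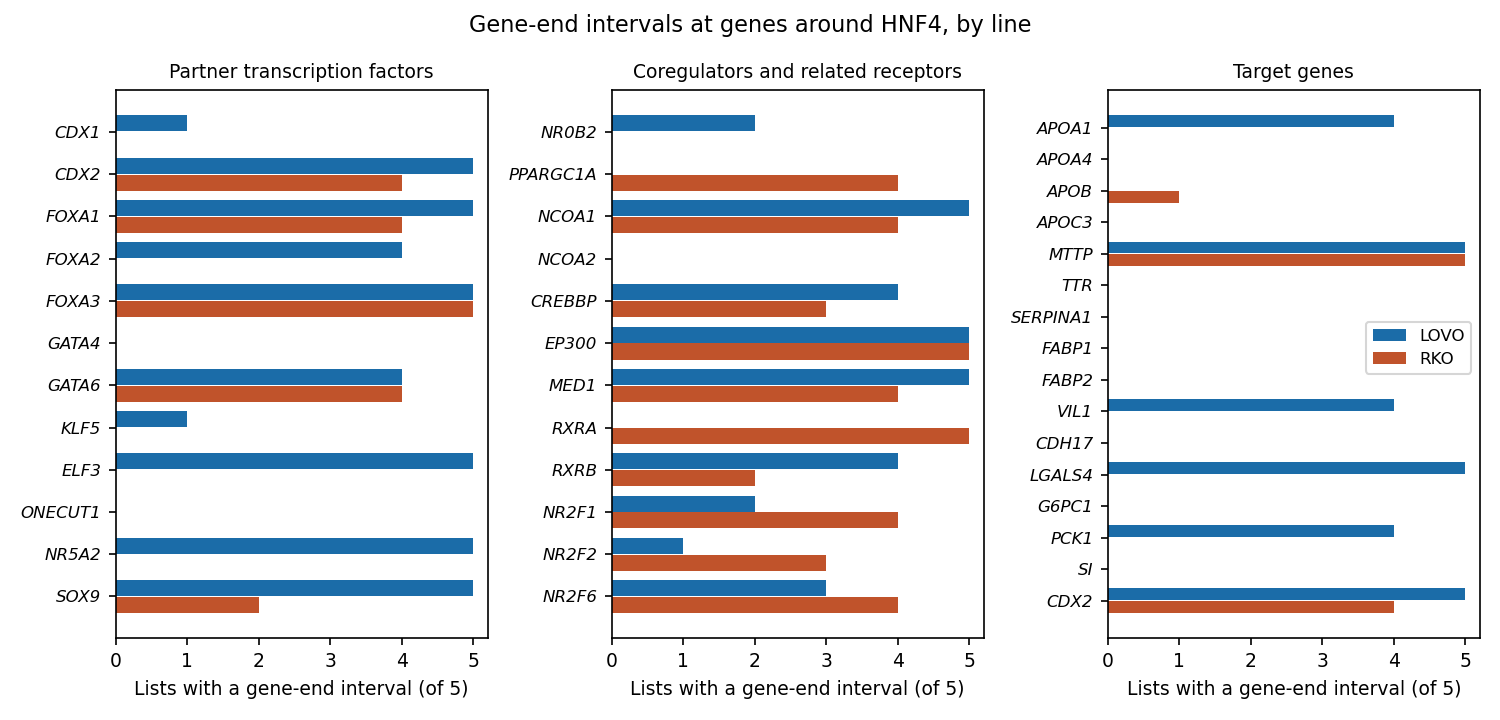
Number of lists, of 5 per line, with an interval within 1 kb of a gene end for each partner, coregulator and target gene (horizontal axis), in LOVO (blue) and RKO (orange). ELF3, NR5A2 and LGALS4 have a blue bar of 5 and no orange bar, RXRA an orange bar of 5 and no blue bar, and 9 target genes have neither.

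Genes whose counts followed those of HNF4A and HNF4G across the 10 lists were found by the Pearson correlation of intervals per 10000 of a list. For HNF4A the closest of 10024 genes included TFB1M (r = 0.95), FBXL13 (0.94), UBL3 (0.91) and SLC25A30 (0.90). FBXL13, for example, averaged 9.6 intervals in LOVO lists and 4 in RKO lists. For HNF4G the closest of 10030 genes were FBXL14 (r = 0.91), FOXP1 (0.90), ANKRD60 (0.88), CYP19A1 (0.87) and TMC6 (0.87). All lists of a line share its genome, merged and scored lists share their form, and the genes were picked as the highest of many, so these values are descriptions only.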

How the data were processed

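The libraries came from a commercial ATAC-seq kit, per the labels. The submitters' processing notes name MACS2 2.2.7.1, Bowtie2 2.4.2, DiffBind 3.0.15, Trim Galore 0.6.6 and the build hg38, but not what each did or when. Read shift, filters, thresholds and how samples of a group were combined are not given in the sources used here. For the groups the authors deposited 10 lists: 4 hold intervals, and 6 add replicate 1 peak names and a score, whose MACS2 column is not stated, so scores were ranked within a list only. Which shControl list holds the second-batch samples is not given.

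Intervals were read with Python 3.11.15, numpy 2.4.6 and scipy 1.17.1, and plots drawn with matplotlib 3.10.9. Genes and promoter sequences came from RefSeq tables of GRCh38.p14, the assembly that hg38 names; these give no exons. The HNF4 lists were matched by symbol, 12 of 12 partners, 12 of 12 coregulators and 16 of 16 targets. A partner shared at least 1 bp, and regions joined overlapping intervals of all lists. A percentile is the share of the list's intervals with a lower value, ties counted in part. Lists of the same form were compared, with some exceptions that set a merged against a scored list. These were shMETTL3 with olaparib against untreated shMETTL3, and the pair of untreated shControl lists. Alternatives with the other untreated shControl list also crossed forms. So did the shares by score class, which set scored shControl against merged shMETTL3. The overlap code was tested on simulated data.

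The members, gene lists and comparisons were chosen with earlier results of these data known. Genes named are HNF4A, HNF4G, genes in their windows, list members in all lists of 1 line and none of the other or lost in both lines (up to 4 a list and state), and the 5 genes most like each member (mean of at least 3 intervals per list, no shared window), 1 of which is not reported here. Other list members were named after their values were seen.

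Alternatives were the gene body alone, 100 kb flanks, 50% overlap, intervals at or above the list's median score or width, the other untreated shControl list, and 5 kb gene ends.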

Additional observations from a re-analysis of the deposited data

How the results depend on the processing

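Of 222 values recomputed under alternatives, 181 moved by no more than the exact interval of the main share or 1.5 times a count. The other 41 moved further. With so few intervals the exact intervals are wide, so the count of 181 does not show that the values are stable. For example, the LOVO HNF4A share lost with shMETTL3 went from 14.3% to 42.9% with 50% overlap and was not counted as moved. Restricted to intervals at or above the list's median score or width, the shares present only in shMETTL3 with olaparib at HNF4A fell to 0% in both lines, against shControl with olaparib and against untreated shControl. Against untreated shMETTL3 they were 14.3% (1 of 7) in LOVO and 33.3% (1 of 3) in RKO. The HNF4G shares gained in LOVO with olaparib, in shControl or shMETTL3, then rested on 1 interval and were 100%, as were its LOVO-only shares under olaparib. The share lost with shMETTL3 in RKO at HNF4A was 0% (0 of 2), and the RKO-only shares were 0% at HNF4A (merged shControl, shMETTL3 with olaparib) and at HNF4G (merged shControl). The LOVO-only share in shMETTL3 was 100% (3 of 3), and the regions in all LOVO and no RKO lists at HNF4A numbered 2 instead of 5. With the gene body alone, the share of HNF4A lost with shMETTL3 was 0% (0 of 4) in LOVO and 100% (1 of 1) in RKO. It gave 100% for LOVO-only HNF4A intervals in the 4 pairs without shMETTL3 and olaparib together, for the merged RKO interval, for RKO intervals gained in shMETTL3 with olaparib in 3 comparisons, and for HNF4G gains and line-only shares resting on 1 or 2 intervals. With 50% overlap, 100% of RKO HNF4A intervals were lost with shMETTL3 (4 of 4) and unmatched in LOVO with olaparib (2 of 2). With the other shControl list, the HNF4G intervals gained in RKO with olaparib and with shMETTL3 and olaparib were 0%. With 100 kb flanks, HNF4G had 1 region in all LOVO and no RKO lists instead of 0. With 5 kb gene ends, merged shControl had 10 coregulators and 10 targets in LOVO and 5 targets in RKO.

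Each group has 1 list per form, so there is no spread between samples, no test and no replicate value. Most shares rest on under 10 intervals. Depth is unknown. Untreated shMETTL3 lists are the smallest of each line, and list size and the hairpin cannot be told apart. No paired analysis was possible because each group has 1 list per form, the merged lists name no replicate and the scored lists name replicate 1 only.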
